A study of Homo sapiens with 20 samples.

Results

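In LNCaP cells, a human prostate cancer line, 1435 stretches of chromatin carried the histone mark H3K27ac away from H3K4me3 and also held the DNA-binding protein CTCF. They were taken from 96020 H3K27ac regions, merged wherever regions of the 2 control siRNA libraries overlapped by 1 bp on chromosomes 1 to 22 and X. Of these, 54904 were present in both libraries, 54234 of those were narrower than 10000 bp, and 22048 overlapped no H3K4me3 region of either control library and are called distal. The 1435 regions were the distal ones overlapped by a CTCF peak in both control CTCF libraries. A further 638 had a peak in 1 control CTCF library, and the 19975 with none served as the comparison. The regions were thus chosen by the control H3K27ac, H3K4me3 and CTCF calls, and the control values given here are descriptions.

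LNCaP cells received 20 nM of a non-targeting control siRNA pool or of a CTCF siRNA pool, and were split and transfected again midway. Chromatin was immunoprecipitated 144 h after the first transfection for CTCF, H3K4me3 and H3K27ac, with 2 libraries per mark and treatment. IMR90 lung fibroblasts received the same siRNAs at the same concentration, with Lipofectamine RNAiMAX as the reagent. They were profiled for CTCF with a standard and with a low-cell protocol. The study reports a weaker knockdown of CTCF mRNA in IMR90 than in LNCaP. RNAi depletes CTCF without deleting its gene, so some protein can remain. The study's methods describe the ChIP experiments as biological duplicates, and the labels do not say which libraries shared a culture. The peak lists carry no read depth. Per the study's list of libraries, the first CTCF siRNA CTCF library of LNCaP was sequenced less deeply than the other LNCaP CTCF libraries. Of the H3K27ac libraries, the second CTCF siRNA library was sequenced least deeply and the first CTCF siRNA library most deeply.

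CTCF is a zinc-finger protein that binds a long DNA motif and, together with cohesin, anchors chromatin loops and bounds domains. H3K27ac is laid down by the acetyltransferases p300 and CBP at active promoters and enhancers, while H3K4me3 marks promoters, so H3K27ac without H3K4me3 is the usual signature of an active enhancer. In luminal prostate cells such enhancers are commonly bound by the pioneer factor FOXA1.

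The labelled cell type was checked by H3K4me3 over gene starts. It covered 4 of 5 prostate luminal markers in both control libraries, including KLK3 and FOXA1, and 1 of 7 fibroblast markers, TWIST1. The 4 H3K27ac lists held 69949 to 98973 regions on these chromosomes. In the second CTCF siRNA list the median region spanned 1700 bp, which set it apart from the other 3 lists at 1300 to 1350 bp, and both CTCF siRNA lists were longer than both control lists. The shares of regions called are therefore given for each CTCF siRNA library or for both, and the overall width change also without it.

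The sequence under the CTCF peaks is shown first, since a CTCF peak is what sets these regions apart from the comparison. The 12-bp core of the CTCF motif, which is CCA, 2 free bases, AG, 2 free bases and GGC, was searched on both strands within 100 bp of the strongest control summit, in the hg19 (GRCh37) reference. It was found at 376 of the 1435 regions, or 26.2% (95% Wilson interval 24.0 to 28.5, which covers counting error only, as do all intervals here), against 27.3% of all 33377 CTCF sites shared by both control libraries. At the centre of the comparison regions it was found in 0.721%, and 1000 bp away from the summits of the 1435 regions in 1.11%. With 1 mismatch allowed, the shares were 72.8%, 73.5%, 14.0% and 16.1%. CTCF inside distal H3K27ac thus lay on the core about as often as CTCF elsewhere. The 5 sequences below belong to regions described later and read 5′ to 3′ along the strand of the core, with the core in capitals.
RNF212 region, core at chr4:1124532-1124543, plus strand: ccatggctgCCACTAGATGGCagaagagaa
MPZL1 region, core at chr1:167772753-167772764, minus strand: tgctcttggCCAGCAGGTGGCagcactggc
Region near CTCF, core at chr16:67581049-67581060, plus strand: agcttctgcCCACCAGGGGGCagcagatcc
TRIM77 region, core at chr11:89358579-89358590, plus strand: tacgctggaCCACAAGGGGGCccctctgtc
THRAP3 intron, core at chr1:36751241-36751252, minus strand: aactaggtgCCACAAGAGGGCactatcgga
In these 5 sites the core lay 9 to 23 bp from the summit. A letter string tied to prostate enhancers was less frequent than in the comparison regions when the central 500 bp were searched on both strands and the comparison was weighted to equal width. The forkhead core TGTTTAC was in 10.6% against 14.5%. The reversed string CATTTGT, which has the same base composition, was in 9.83% against 12.7%. A lower share was thus not particular to the forkhead core. The median GC content of the central 500 bp was 47.8% against 44.2%.

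The CTCF-holding regions were 550 to 9400 bp wide, with a median of 1650 bp, against a median of 1550 bp for the comparison. Nearly all of them, 1387, held 1 shared CTCF site, 42 held 2 and 1 held 3, while in 5 the peaks of both libraries lay apart. The summit lay nearer to the centre than to an end in 825 (57.5%) and outside the region in 84. Control CTCF fold enrichment, the peak's height over local background, had medians of 11.4 and 14.2 in both control libraries. By the centre of the region, 56.3% were intronic, 29.9% intergenic, 5.30% in a UTR and 3.41% in a coding exon. The width-weighted comparison had more introns (63.6%) and fewer UTRs (2.89%) and coding exons (1.61%). The median distance to a protein-coding start was 28.5 kb against 47.4 kb. The widest was a 9400 bp region at chr12:101877701-101887100, 13287 bp from the start of SPIC, an ETS-family transcription factor gene, followed by one of 9350 bp at chr1:36742651-36752000 in an intron of THRAP3, which encodes an RNA-processing protein. The nearest regions past the width limit measured 10050 bp at chr17:27241851-27251900 and 10500 bp at chr21:22603651-22614150.

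Genes of the prostate programme had none of these regions within 50000 bp of their start, but some at a greater distance. Within 50000 bp of the start of 22 androgen-induced genes there was no CTCF-holding region, although 16 of the 22 had at least 1 comparison region, among them TMPRSS2 and PMEPA1. The same held for 10 luminal transcription factor genes, including FOXA1, of which 8 had a comparison region. Over all 20090 protein-coding genes, 10.8% had a CTCF-holding and 55.6% a comparison region within 50000 bp. Within 100000 bp, a CTCF-holding region was found at 4 of the 22 and 2 of the 10 genes, against 18.8% of all genes, so the counts of 0 rested on the narrower window. Of 11 genes for CTCF and cohesin, 2 had such regions. One lay 15719 bp from the start of CTCF itself at chr16:67579601-67581700, and 2 were near MAU2, which encodes a cohesin loader.

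After CTCF siRNA, CTCF was called at few of the regions. A peak was present at 87 (6.06%) in the first CTCF siRNA library and at 255 (17.8%) in the second. It was present in both at 85 (5.92%, 4.82 to 7.27), termed persistent, and in neither at 1178 (82.1%), termed lost. Of the other 172, 170 had their peak in the second library. Over all shared control CTCF sites, 9.26% had a peak in both libraries. A lost peak is one under the calling threshold, so these calls do not show how far binding fell.

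CTCF inside distal H3K27ac persisted less often, in each library, than CTCF outside both marks or with H3K4me3. The regions held 1471 shared sites, of which 5.85% had a peak in both CTCF siRNA libraries (4.76 to 7.16). At equal control fold enrichment, the share was 10.3% for the 24064 sites outside H3K27ac and H3K4me3 and 13.8% for the 5823 sites in H3K4me3 regions. The 2019 other sites in H3K27ac without H3K4me3, in regions left out above, were nearer, at 7.22%. In the first library the shares inside distal H3K27ac, outside both marks and with H3K4me3 were 6.12%, 10.9% and 15.4%. In the second they were 17.6%, 22.5% and 26.7%, so the order was the same in each library while the level differed between them.

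**Figure D1:**
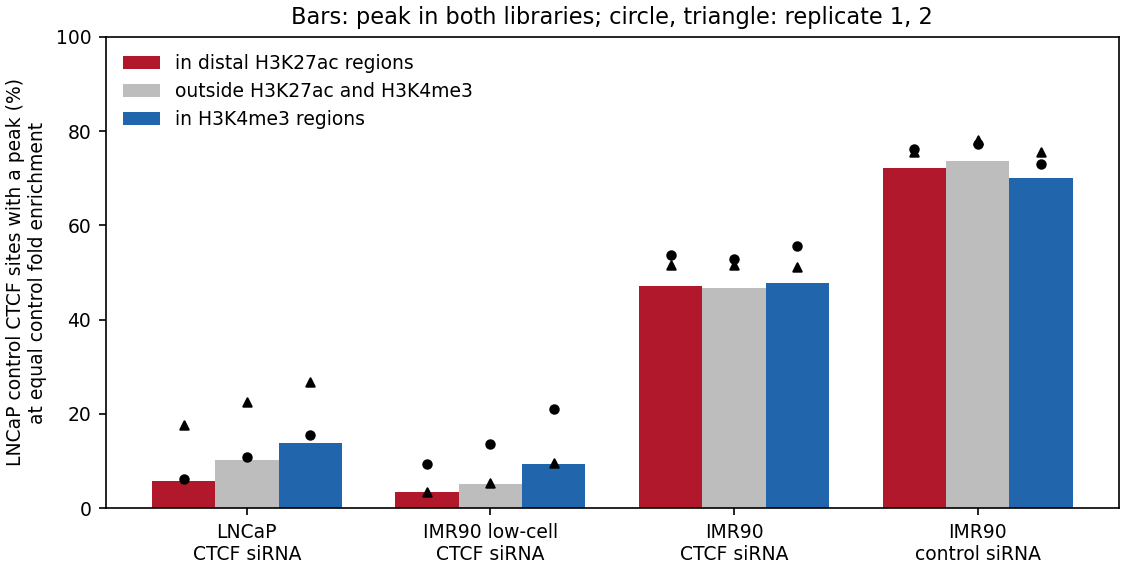
Share of LNCaP control CTCF sites with a peak in each later library group (y axis, percent, weighted to equal control fold enrichment), for sites in distal H3K27ac regions (red), outside H3K27ac and H3K4me3 (grey) and in H3K4me3 regions (blue). Bars need a peak in both libraries, and circles and triangles show replicates 1 and 2. Sites in distal H3K27ac are lowest in both CTCF siRNA groups with strong loss (5.85% in LNCaP, 3.54% in low-cell IMR90), while the 3 classes lie close together in standard IMR90.

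Persistence followed control strength. The median of the mean control fold enrichment was 27.6 at persistent, 22.9 at single-library and 11.1 at lost regions. At persistent regions, fold enrichment had control medians of 24.3 and 30.5 and CTCF siRNA medians of 8.60 and 14.9, so peaks that stayed were also lower, although fold enrichment is not scaled between libraries. The exact core was found at 50.6% of persistent (40.2 to 61.0), 36.6% of single-library and 22.9% of lost regions (20.6 to 25.4). The persistent region with the highest enrichment, at chr15:41195351-41196750, lay 9403 bp from the start of VPS18, a gene for vesicle transport to lysosomes. Its fold enrichment was 52.3 and 59.8 in control and 8.72 and 10.4 after CTCF siRNA. That of the RNF212 region at chr4:1122801-1126800, near a meiotic recombination gene, was 51.5 and 59.4 in control and 19.5 and 32.7 after CTCF siRNA. Strong sites were also lost. A region at chr17:79074101-79075700 in an intron of BAIAP2, an actin regulator, had control values of 67.8 and 28.3, one at chr1:155220251-155222300 in ENTREP3 had 45.6 and 47.1, and one at chr17:41386401-41387900 near TMEM106A had 38.5 and 51.3. None of these 3 had a CTCF peak in either CTCF siRNA library.

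In IMR90 the same sites were bound about as often as other LNCaP sites. A CTCF peak was present in both control IMR90 libraries at 72.1% of the 1471 sites, against 73.6% of sites outside H3K27ac and H3K4me3 at equal LNCaP fold enrichment. After CTCF siRNA with the standard protocol the shares were 47.1% and 46.7%. With the low-cell protocol they were 47.1% and 46.4% in control and 3.54% and 5.17% after CTCF siRNA. H3K27ac of IMR90 was not analysed here, so whether these sites lie in enhancers there is not known.

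The central comparison asked whether H3K27ac was still called at these regions after CTCF siRNA. It was called less often than at distal regions of equal width without CTCF. In the first CTCF siRNA library 77.3% of the 1435 regions were called (75.04 to 79.38), against 91.0% of comparison regions weighted to the same widths. In the second it was 81.9% (79.8 to 83.8) against 93.1%. The differences were -13.7 and -11.2 percentage points, with the CTCF-holding regions lower in both libraries. In both libraries together 1059 were called, or 73.8% (71.5 to 76.0), against 88.1% weighted, while over all 22048 distal regions 85.8% were. H3K27ac was in neither library at 210, or 14.6% (12.9 to 16.6), against 3.99% weighted and 5.18% of all distal regions. The 638 regions with a CTCF peak in 1 control library were close to the comparison, with 85.1% in both and 4.55% in neither.

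The gap was present in every width class and widest for narrow regions. In the narrowest of 5 classes, 550 to 1200 bp, 43.6% were called in both CTCF siRNA libraries (38.2 to 49.1), against 72.2% of comparison regions of those widths. For 1250 to 1450 bp it was 69.0% against 86.9%, and for 1500 to 1850 bp 80.9% against 91.5%. For 1900 to 2550 bp it was 87.7% against 94.7%, and for 2600 to 9400 bp 91.5% against 95.8%.

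**Figure D2:**
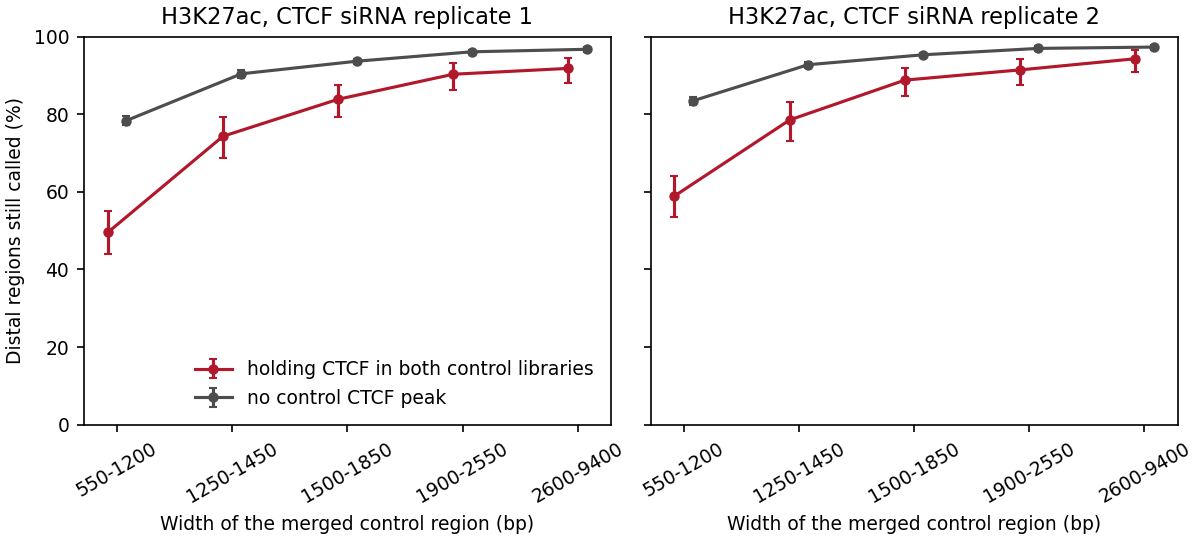
Share of distal regions still called in each CTCF siRNA H3K27ac library (y axis, percent) by the width of the merged control region (x axis, bp), for regions holding CTCF (red) and with no control CTCF peak (grey), with 95% Wilson intervals. The red points lie under the grey ones in all 5 classes of both libraries. For the narrowest class they are at 49.5% against 78.4% in replicate 1 and 58.9% against 83.5% in replicate 2. For the widest they are at 91.8% against 96.8% and 94.3% against 97.3%.

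Widths and calls vary between lists, so each H3K27ac library was also searched in each other one, with distal defined over all 4 H3K4me3 lists. Control CTCF peaks marked the CTCF-holding regions throughout. When control regions were looked for in CTCF siRNA libraries, the CTCF-holding regions were found less often in all 4 pairs, by -17.3 to -11.8 percentage points. Between control libraries the differences were 7.40 and 0.28 points, and between CTCF siRNA libraries 0.73 and -0.30. When CTCF siRNA regions were looked for in control libraries, they ran from 1.65 to 5.82 points. A deficit of this size was seen only from control to CTCF siRNA. The CTCF-holding regions were chosen by control CTCF calls in either direction, and regions with H3K4me3 after CTCF siRNA were left out. The search from CTCF siRNA to control was thus not a neutral reverse. How much these choices added to the difference was not tested. Control regions in both libraries were found in both CTCF siRNA libraries in 66.1% (n = 1039) against 84.9%, and CTCF siRNA regions in both control libraries in 49.0% (n = 1344) against 47.0%. These pairs share libraries and are not independent.

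**Figure D3:**
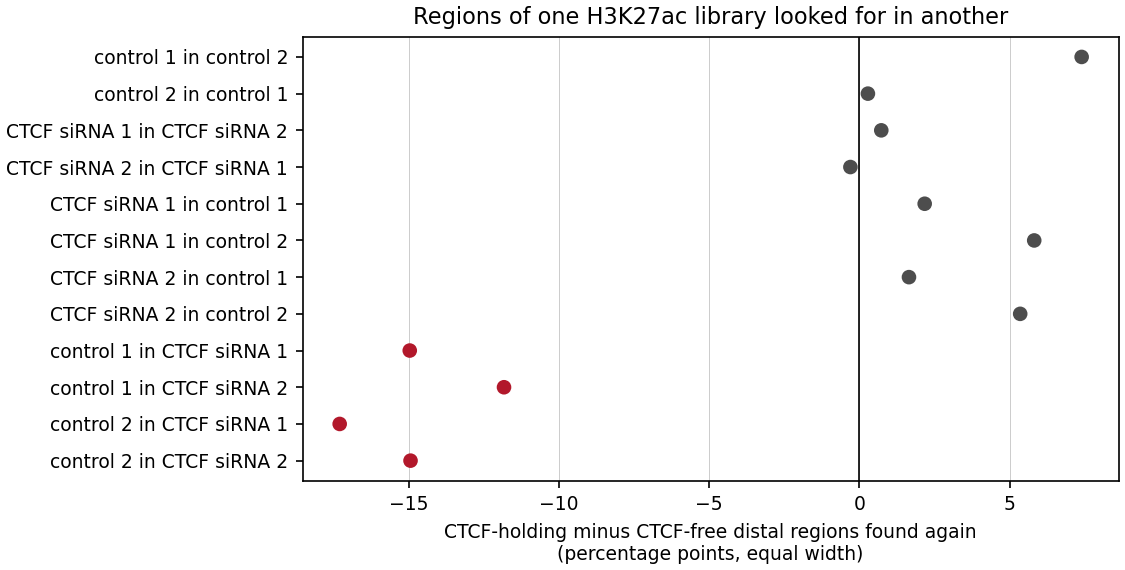
Difference between CTCF-holding and CTCF-free distal regions in the share found again (x axis, percentage points at equal width), for each ordered pair of the 4 H3K27ac libraries (y axis, regions of the first looked for in the second). The 4 pairs from control to CTCF siRNA (red) lie between -17.3 and -11.8, and the other 8 (grey) between -0.30 and 7.40.

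Counted per library, a shared control CTCF site lay in 4.61% and 4.80% of the distal H3K27ac regions of both control libraries and in 3.31% and 3.92% after CTCF siRNA. The control values lay above the CTCF siRNA values without overlap (4.70 ± 0.14 against 3.61 ± 0.43, SD, n = 2 each, two-sided exact permutation p = 0.33, which is the smallest that 2 against 2 libraries allow). The reverse share, of 26024 distal CTCF sites that lay in H3K27ac, was 7.39% and 5.17% in control and 6.22% and 8.20% after CTCF siRNA. It overlapped between treatments (two-sided exact permutation p = 0.67). The distal H3K27ac regions numbered 41033 and 27719 in control and 48272 and 53289 after CTCF siRNA. Those holding a site numbered 1890 and 1331, then 1596 and 2087, so these counts overlapped between treatments.

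The loss of H3K27ac calls showed no clear order by CTCF fate, with only 85 persistent regions to compare. H3K27ac was called in both CTCF siRNA libraries at 70.6% of the 85 persistent regions (60.2 to 79.2), at 72.7% of the 172 single-library regions and at 74.2% of the 1178 lost regions (71.6 to 76.6). Against comparison regions of their own widths, persistent regions differed by -16.2 percentage points and lost regions by -13.9. Lost minus persistent was 3.61 points, and -6.18 points once lost regions were weighted to the widths and fold enrichment of the persistent ones, so its sign depended on that weighting. H3K27ac was in neither library at 14.1% of persistent and 14.8% of lost regions, and at 20.5% of lost regions with that weighting. In the first library 72.9% of persistent and 77.9% of lost regions were called, and in the second 83.5% and 81.5%.

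Control CTCF strength did mark a difference. The regions were split into 5 classes of 287 by mean control fold enrichment. In the lowest class, 3.43 to 7.55, H3K27ac was called in both CTCF siRNA libraries at 86.1% of the regions (81.6 to 89.6), a difference of -3.08 points from comparison regions of equal width. In the 4 higher classes the difference was -16.4, -14.4, -18.2 and -19.2 points. In the first CTCF siRNA library alone the differences from the lowest class up were -4.39, -14.5, -13.8, -16.4 and -19.5 points, and in the second -4.89, -13.5, -13.8, -12.0 and -11.9. The share without H3K27ac in either library was less distinct, with an excess over the comparison of 6.20 points in the lowest class (9.76% against 3.55%) and of 11.5, 13.1, 10.1 and 12.2 in the others. CTCF was lost at 99.3% of the lowest class and 49.5% of the highest. Whether the core was present made little difference, with 73.7% called at regions with it and 73.8% at regions without.

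**Figure D4:**
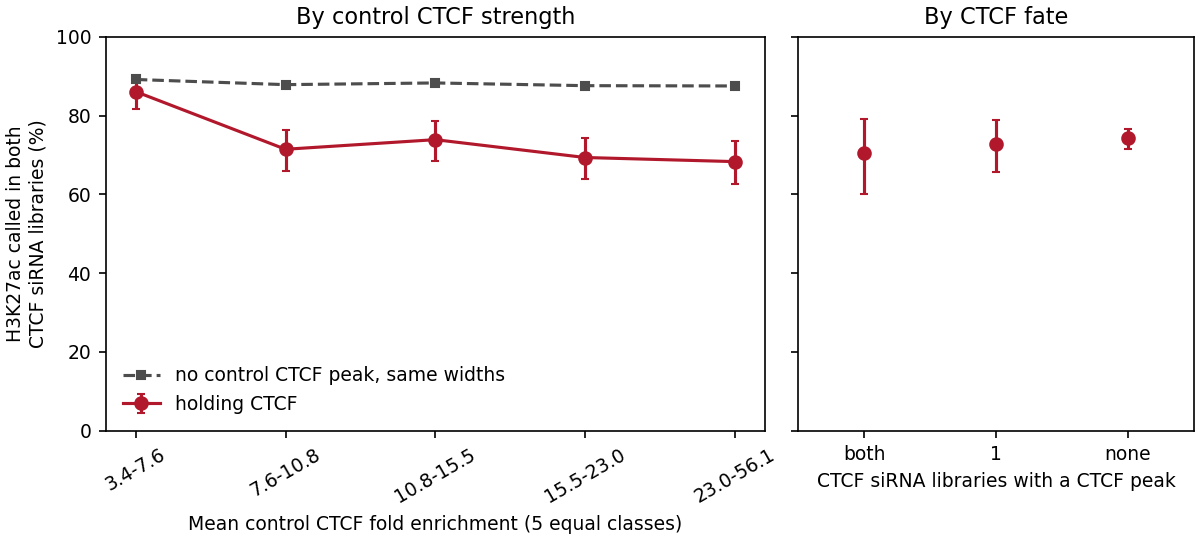
Share of CTCF-holding regions with H3K27ac in both CTCF siRNA libraries (y axis, percent, 95% Wilson intervals) by 5 equal classes of mean control CTCF fold enrichment (left, with comparison regions of the same widths in grey) and by the number of CTCF siRNA libraries with a CTCF peak (right). The lowest class, at 86.1%, differs from its comparison by -3.08 points and the other 4 by -19.2 to -14.4 points, while the 3 fate classes lie at 70.6%, 72.7% and 74.2% with overlapping intervals.

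By position, regions with the CTCF summit nearer to an end, or outside, had 70.3% called in both libraries against 87.4% of their comparison. Those with it nearer to the centre had 76.4% against 88.6%. The shares without H3K27ac in either library were 15.1% against 4.29% and 14.3% against 3.76%, so they differed little by position. The gap in calls in both libraries was wider near genes. Within 5 kb of a protein-coding start 63.8% were called in both libraries against 87.3%, a difference of -23.5 points. It was -17.5 points at 5 to 20 kb, -12.7 at 20 to 100 kb and -9.98 over 100 kb away, where 74.6% were called against 84.6%. The excess without H3K27ac in either library showed no such order, at 12.4, 12.8, 9.24 and 11.1 points. At equal width and GC content the difference was -15.2 points. Comparison regions less than 1 kb from a shared CTCF site were called in 85.4% after weighting to equal width, those 5 to 20 kb away in 89.3% and those over 100 kb away in 84.7%, so CTCF nearby but not overlapping went with a share between those at other distances. Among H3K27ac regions that did carry control H3K4me3, 95.1% of the 3666 with CTCF were called in both CTCF siRNA libraries. Of the 26388 without CTCF, 96.6% were, a difference of -1.52 points. In neither library were 2.35% of those with CTCF called, against 0.83% of those without, an excess of 1.51 points.

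The regions without H3K27ac after CTCF siRNA were mostly narrow, with a median width of 1200 bp against 1800 bp for those called in both. Their control CTCF fold enrichment had medians of 12.3 and 14.6, against 10.8 and 13.4. They were spread over 190 windows of 1 Mb, and 1 window held 3 of them. That window, chr10:54000001-55000000 around MBL2, the gene for mannose-binding lectin, held 3 of the 4 widest. These lay at chr10:54968251-54973450, chr10:54577351-54581800 and chr10:54709451-54713350 and were 5200, 4450 and 3900 bp wide. Their distances to the start of MBL2 were 438307, 47032 and 178857 bp. All 3 CTCF-holding regions of the window had no H3K27ac call after CTCF siRNA, against 1 of its 13 comparison regions. The window was picked for these 3 regions, so that contrast is a description only. Of the comparison regions, 903 had no H3K27ac after CTCF siRNA, and 38 windows held 3 or more of those. The whole window held 51 and 34 H3K27ac regions in control and 35 and 41 after CTCF siRNA. The widest of all, 6800 bp at chr20:21695251-21702050, was 12354 bp from the start of PAX1, a transcription factor gene of skeletal development, and measured 6800 and 3950 bp in both control libraries.

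Where H3K27ac stayed, its median width changed about as much over all CTCF-holding regions as at comparison regions. At the 1059 regions called in all 4 libraries, the median width was 1700 and 1450 bp in control and 1900 and 2550 bp after CTCF siRNA. For the width-weighted comparison it was 1700 and 1350 bp, then 1900 and 2350 bp. The CTCF siRNA medians lay above the control medians in both sets (two-sided exact permutation p = 0.33 in each, n = 2 per treatment). The difference between the sets, 50 ± 70.7 bp in control and 100 ± 141 bp after CTCF siRNA (SD, n = 2 each), was within the spread between libraries. The median log2 ratio of mean CTCF siRNA to mean control width was 0.47, against 0.42 in the comparison, a difference of 0.05, or 0.01 without the second CTCF siRNA library. By CTCF fate it was 0.48 at 60 persistent and 0.45 at 874 lost regions, which was 0.06 and 0.04 above comparison regions of their widths. At the 125 regions with CTCF in 1 CTCF siRNA library it was 0.64, or 0.21 above theirs.

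**Figure D5:**
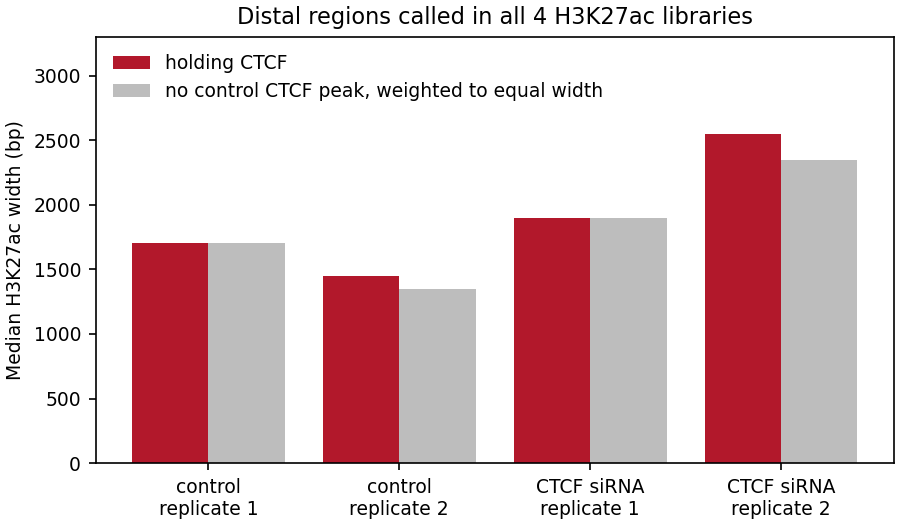
Median H3K27ac width (y axis, bp) in each of the 4 libraries (x axis) at distal regions called in all 4, for the 1059 regions holding CTCF (red) and the 17313 without a control CTCF peak weighted to equal control width (grey). Both sets are widest in the second CTCF siRNA library, at 2550 and 2350 bp.

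In both CTCF siRNA libraries 565 of the 1059 (53.4%) were wider than in both control libraries, against 51.5% of the weighted comparison and 55.5% of all distal regions called in 4 libraries. Narrowing on the same terms was seen at 68 (6.42%), against 4.14% and 3.15%. A width here is the summed length of the overlapping H3K27ac regions, which can reach past the control region. Among lost regions the largest increase was at chr17:56072251-56073400 near VEZF1, a zinc-finger transcription factor gene, with 550 and 750 bp in control and 8950 and 10000 bp after CTCF siRNA. In an intron of CDC14A, which encodes a phosphatase, the widths were 1400 and 1050 bp, then 22550 and 7100 bp. In an intron of HNRNPF, a splicing factor gene, they were 1150 and 750 bp, then 1300 and 21400 bp, so 1 library carried most of that change. The largest decrease was at chr11:89355551-89362550, 84416 bp from the start of TRIM77, from 7000 and 4500 bp to 950 and 2000 bp. At chr2:208336001-208338900 the width went from 2900 and 1800 bp to 550 and 1050 bp. The nearest protein-coding start, 57010 bp away, was that of CREB1, the gene of a cAMP-responsive transcription factor. At a region 28783 bp from the start of XCL1, a chemokine gene, 5250 and 3500 bp became 550 and 2450 bp.

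Near CTCF and cohesin genes the CTCF siRNA libraries differed from each other. The region near CTCF measured 1500 and 2100 bp in control and 750 and 2950 bp after CTCF siRNA, and its CTCF fold enrichment of 15.1 and 20.7 was followed by no peak. The region in an intron of MAU2 measured 1350 and 1550 bp, then 550 bp in 1 CTCF siRNA library and no call in the other. The second MAU2-linked region, nearest to GATAD2A, had 1050 and 1450 bp in control and was called at 1300 bp in the second CTCF siRNA library alone.

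The ends of H3K27ac lay farther from CTCF after CTCF siRNA, whether or not CTCF persisted, while H3K27ac also widened at comparison regions. At the 824 lost regions measured, the median from the summit to the nearer end was 528.5 and 388.5 bp in control and 609.5 and 820 bp after CTCF siRNA. To the farther end it was 1200.5 and 1074 bp, then 1296.5 and 1611 bp. At the 57 persistent regions, the nearer end was 343 and 299 bp away in control and 605 and 854 bp after CTCF siRNA. The treatments did not overlap in any of the 3 sets (two-sided exact permutation p = 0.33 in each). These lengths were largest in the library with the widest H3K27ac regions, whose part in the shift was not tested. Without it the shift of the nearer end at lost regions was 151 bp, in place of 256.2 bp. The width-weighted comparison regions, which hold no CTCF, had median widths of 1700 and 1350 bp in control. After CTCF siRNA these were 1900 and 2350 bp. Whether the ends moved more than this widening was not tested.

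H3K4me3 was absent from the regions in control cells by definition. After CTCF siRNA it was called at 139 (9.69%) in the first library and 359 (25.02%) in the second, and in both at 102 (7.11%, 5.89 to 8.56). The width-weighted comparison had 8.87%, 23.4% and 5.54%, and all distal regions had 5.42% in both. The excess over the comparison was small, 0.81 and 1.57 points in the single libraries. By CTCF fate the shares differed more. H3K4me3 was called in both libraries at 16 of 85 persistent regions (18.8%, 11.9 to 28.4), 20 of 172 single-library regions (11.6%) and 66 of 1178 lost regions (5.60%, 4.43 to 7.07). Lost regions weighted to the width and fold enrichment of persistent ones had 5.17%. In the first library the persistent and lost shares were 24.7% and 7.89%, and in the second 41.2% and 23.4%. The order held at 20000 bp or more from a protein-coding start, with 12 of 55 persistent (21.8%) and 50 of 704 lost regions (7.10%). The region with the strongest control CTCF among these named cases, at chr1:167770951-167773500 and 81797 bp from the start of MPZL1, a cell-surface glycoprotein gene, kept its CTCF peak at 10.4 and 19.4 fold. Its H3K27ac widened from 2400 and 1200 bp to 4150 and 4900 bp. In an intron of ACOT7, an acyl-CoA thioesterase gene, H3K27ac stayed at 1550 and 1800 bp, then 1700 and 1800 bp, with H3K4me3 called in both CTCF siRNA libraries.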

How the data were processed

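ChIP-seq peak lists of 20 libraries in 10 groups of 2 were used, grouped by the sample labels. The authors aligned reads to hg19 and called CTCF peaks per library with MACS2 (FDR 0.05, fragments taken as 200 bp long) and histone regions with PeakRanger. The deposited CTCF lists give a fold enrichment (a ratio to local background), −log10 p-values and q-values, and the distance of the summit from the peak start, and the deposited histone lists give a score whose meaning is not stated and which served only to shorten lists. Raw reads and signal tracks were not used here, so a region is called or not called, and the lists carry no depth.

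Regions were merged and compared by an overlap of 1 bp. Comparison shares were weighted to the CTCF-holding regions over 10 quantile bins of merged control width, and CTCF sites over 10 bins of mean control fold enrichment. Shares carry 95% Wilson intervals. Over libraries, two-sided exact permutation tests were used, which with 2 against 2 cannot fall below 0.33, and p-values measure only the spread between these libraries. No test was run over regions. The regions and lists were chosen with earlier results of these data known. Genes are from GENCODE release 44 on GRCh37 coordinates, which count from 1. Named are the 4 regions of each kind with the strongest CTCF, the widest without H3K27ac, the most widened or narrowed, those with H3K4me3 after CTCF siRNA, those near listed genes and those at the width limit, given in part, and those on chromosome 8 are not printed. Some listed genes and named regions are not reported here, and the list counts are given without them. The alternatives were another overlap, q-value, width, H3K4me3 distance and bin number, lists of equal length, a replicate block and leaving out each library. The searches between single libraries, the weights over GC content, the classes by distance to a gene and the window of 100000 bp were chosen after seeing the data. The scripts were tested on simulated lists. Python 3.11.15, numpy 2.4.6, pandas 2.3.3, scipy 1.17.1, pysam 0.24.0 and matplotlib 3.10.9 were used.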

Additional observations from a re-analysis of the deposited data

How the results depend on the processing

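Differences are in percentage points, CTCF-holding minus width-weighted comparison regions. The deficit in H3K27ac calls in both CTCF siRNA libraries, -14.3, was negative under all alternatives. It was -11.4 with histone lists of equal length and, chosen after seeing the data, -18.8 with no H3K4me3 in any of the 4 lists, and it ran from -14.9 to -10.2 when 1 library was left out. The excess without H3K27ac, 10.6, ran from 8.01 to 13.7. The excess with H3K4me3 in both, 1.57, was 2.52 with lists of equal length and ran from 0.81 to 2.62, lowest without the second CTCF siRNA H3K4me3 library and highest without the second control one. The number of regions, 1435, rose to 2380 without the second control H3K27ac library. The persistent share, 5.92%, ran from 4.39% to 17.8%, the highest without the first CTCF siRNA CTCF library. Lost minus persistent, 3.61, was -6.18 at equal width and fold enrichment, -0.88 with lists of equal length and -2.04 to 7.13 with 1 library left out, negative without the first CTCF siRNA H3K27ac library. The width difference, 0.05 on the log2 scale, ran from 0.01, without the second CTCF siRNA library, to 0.07. The core share rose to 72.8% with 1 mismatch, and IMR90 sites to 79.7% with a peak in either library. The near-end shift at lost regions, 256.2 bp, ran from 151 bp, without the second CTCF siRNA library, to 361.5 bp. The causes were not tested.

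Same-numbered libraries were not shown to be paired, with a correlation of 0.04 over 50410 regions for 2 pairs. With the replicate number as a block, in which each number's own control list was compared with its own CTCF siRNA list, the deficit was -8.54, the excess without H3K27ac 8.54 and the H3K4me3 excess 2.54. Depth is not in the peak lists, and the study gives it only as a total per library. Regions near the calling threshold thus cannot be told from regions that lost the mark.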
